A study of Mus musculus with 12 samples.

Results

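Adipocyte genes were followed through mammary tumours that lack the retinoic acid receptor gene Rarb and through tumours that carry it. The 10 genes were Adipoq, Lep, Cfd, Plin1, Plin4, Cidec, Fabp4, Lpl, Pck1 and Pparg, chosen as a list of genes that fat cells express, and every probe whose accession belongs to one of them was taken. They gave 12 probes of 27235 named probes and 10 of 20660 named genes. A gene was tested where the scanner's flag put the sample channel of its probe well above background on 3 or more of the 12 arrays, which 9 of the 10 genes and 13274 genes in all passed. Adipocytes make up much of the normal mammary fat pad, into which a tumour grows. The receptor PPAR gamma, encoded by Pparg, pairs with a retinoid X receptor and switches on the genes by which these cells take up, store and release fat. Mature adipocytes are known for droplet coat proteins such as perilipin 1 and for secreted proteins such as adiponectin, leptin and adipsin.

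All tumours arose in FVB mice with the MMTV-wnt1 transgene, in which the promoter of a mammary tumour virus directs expression of Wnt1, a growth factor gene, to the mammary epithelium. The KO groups were Rarb -/- and the WT groups Rarb +/+. Epithelium and stroma of each tumour were cut apart by laser capture microdissection, in which stained tissue is collected under a microscope. The 12 arrays thus form 4 groups of 3, namely KO epithelium and KO stroma of tumours 1, 3 and 4, and WT epithelium and WT stroma of tumours 1, 2 and 3. The labels give no treatment and no age, and do not state whether the tumours are from different mice. The p-values therefore cover the spread among these samples, which may be technical. Each sample was labelled with Cy3 and set against the same mouse reference RNA, labelled with Cy5, and values are log2 ratios of sample over reference. A value of 0 means as much signal as the reference, and a step of 1 is a doubling.

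Per array, 36% to 46.3% of probes had Cy3 well above background. The targeted gene did not separate the genotypes: the detected Rarb probe ran from -1.13 to 1.36 in KO and -0.76 to 0.85 in WT epithelium, while the stromal values ran from 0.57 to 2.09 in KO and -0.29 to 1.37 in WT stroma. Neither difference passed (limma adjusted p = 0.993 and 0.402), the other Rarb probe was at background on all 12 arrays, and the sources used here do not place either probe within or outside the deleted part. All epithelial arrays share one slide and all stromal arrays the other, so compartment and slide cannot be told apart. On both slides KO arrays fill row 1 and WT arrays row 2, which leaves genotype and row impossible to tell apart. In the epithelium the luminal list (9 genes such as Krt8 and Epcam) averaged 3 to 3.35 per KO array and 2.9 to 3.43 per WT array. In the stroma it averaged 0.54 to 1.48 in KO but 2.36 to 3.31 in WT, where the range overlapped that of the epithelium.

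RefSeq promoters, assembly GRCm38.p6, were at hand for 8 of the 10 genes, 11 starts in all. Those of 3 genes are shown. Plin1 and Pparg tracked the other adipocyte genes over the arrays, and Adipoq did so least closely of the 3. Cidec, which is not shown, tracked the others more closely than Pparg (r = 0.879 against 0.847). The correlation of Adipoq with the other members, given below, was 0.564, and 0.838 without WT epithelium 3, where its spot was unusual. Each line is the 250 bases before the start, on the gene's strand. Capitals mark every match, on either strand, to AGGTCA, the half-site that PPAR gamma and other nuclear receptors bind, to TTGCNNAA, a core of C/EBP sites, and to CCAAT. Plin1 lies on the minus strand at chr7:79732777-79733026, the Pparg start shown is on the plus strand at chr6:115421816-115422065, and Adipoq is on the plus strand at chr16:23146286-23146535.
Plin1: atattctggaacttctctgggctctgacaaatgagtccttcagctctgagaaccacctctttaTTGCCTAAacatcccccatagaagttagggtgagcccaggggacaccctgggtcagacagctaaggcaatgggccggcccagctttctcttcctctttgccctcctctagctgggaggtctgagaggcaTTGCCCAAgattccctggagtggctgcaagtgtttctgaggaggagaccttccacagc
Pparg: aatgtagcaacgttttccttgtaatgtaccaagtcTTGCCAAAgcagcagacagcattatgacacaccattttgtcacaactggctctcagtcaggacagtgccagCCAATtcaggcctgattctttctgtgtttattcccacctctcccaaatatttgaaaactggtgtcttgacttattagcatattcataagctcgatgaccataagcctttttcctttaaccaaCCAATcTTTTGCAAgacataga
Adipoq: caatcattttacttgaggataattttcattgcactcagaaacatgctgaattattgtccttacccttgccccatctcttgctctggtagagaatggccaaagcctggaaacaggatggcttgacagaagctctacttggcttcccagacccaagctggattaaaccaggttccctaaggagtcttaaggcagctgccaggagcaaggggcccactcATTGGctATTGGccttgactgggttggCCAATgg
The TTGCNNAA core occurred 2 times before Plin1, 2 times before this Pparg start and 0 times before Adipoq, and 9.56% of all 32851 promoter windows of this length hold at least 1. In the windows not shown it occurred 0 times before the other 2 Pparg starts, Plin4, Cfd, Pck1 and 1 Cidec start. It occurred 1 time before the other Cidec start and 1 time before Lep. The Adipoq window holds 3 CCAAT matches and the Pparg window 2, against 33.8% of windows with any. No AGGTCA lies in these 3 windows, while it lies in 14% of all, and the other 2 listed Pparg starts hold 1 each. These are matches of letters, not sites shown to be bound. The 3 windows were picked, and of the listed Pparg starts the shown start alone holds the TTGCNNAA core. A link between the letters and the tracking was not tested. The C/EBP and CCAAT letters do not overlap in these windows.

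The adipocyte genes were high on particular captures more than in particular groups. KO stroma replicate 3 had the highest ratio of all 12 arrays for 7 of the 9 detected genes and was among the top 2 for all 9. WT epithelium replicate 2 was among the top 3 for all 9 as well, although it is labelled epithelium. The mean over the 9 genes was 4.9 on KO stroma replicate 3 and 3.29 on WT epithelium replicate 2, and -0.9 to 2.05 on the other 10 arrays. KO epithelium replicate 4 was the lowest array for 5 of the 9. In captured tissue, fewer adipocytes and less RNA per adipocyte cannot be told apart.

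**Figure D1:**
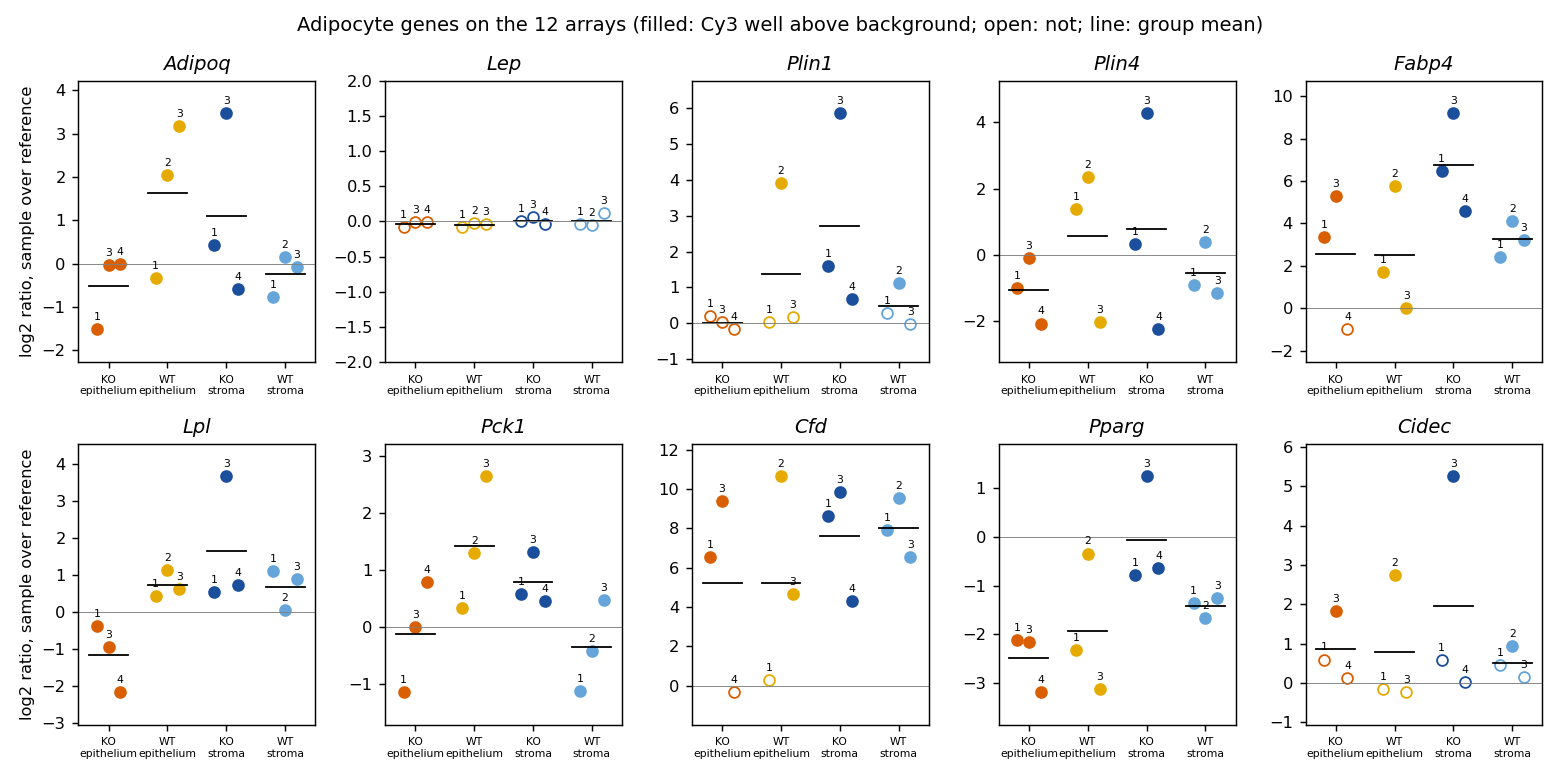
Log2 ratio of sample over reference (vertical axis) of the 10 adipocyte genes in the 4 groups, 1 point per array with its tumour number, filled where Cy3 was well above background, the line marking the mean of 3 arrays. KO stroma 3 and WT epithelium 2 stand high in most panels, and Lep is open throughout.

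Of the secreted proteins, adiponectin (Adipoq), a hormone that improves insulin sensitivity, was detected on all 12 arrays. Its log2 ratios were -1.52, -0.03 and -0.01 in KO epithelium and -0.32, 2.04 and 3.18 in WT epithelium, and 0.44, 3.47 and -0.58 in KO stroma and -0.78, 0.15 and -0.08 in WT stroma. KO stroma 3 and WT epithelium 2 and 3 stood above 2, and the groups overlapped. Group means ± SD (n = 3) were 1.63 ± 1.79 in WT epithelium, 1.11 ± 2.1 in KO stroma, -0.24 ± 0.48 in WT stroma and -0.52 ± 0.87 in KO epithelium, each step between neighbours smaller than the larger of their SDs. The highest epithelial value rests on an unusual spot. On WT epithelium replicate 3 the Adipoq probe read a median Cy3 intensity of 132708 and a Cy5 intensity of 20017.5, while its Cy5 on the other arrays lay between 835 and 2659. Every array carried the same reference RNA, and the scanner's processed Cy5 signal was 15.9-fold the median of the other 11 arrays.

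Leptin (Lep), the hormone that reports fat stores to the brain, was not detected. Its probe was not well above background in either channel on any of the 12 arrays, with Cy3 intensities of 62 to 104 and log2 ratios of -0.08 to 0.12. It therefore has only a bound in every group and entered no test.

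Adipsin (Cfd), a serine protease of the alternative complement pathway, spanned the widest range of the 9 genes. Its ratios were 6.54, 9.4 and -0.34 in KO epithelium and 0.28, 10.65 and 4.64 in WT epithelium, and 8.64, 9.83 and 4.32 in KO stroma and 7.9, 9.55 and 6.54 in WT stroma. Cy3 ran from 67, not well above background, on KO epithelium 4 to 349813 on KO stroma 3. All 6 stromal arrays were above 4, whereas each epithelial group held 1 array without detected Cfd beside 1 array at 9.4 or more. Group means were 8 ± 1.51 in WT stroma, 7.6 ± 2.9 in KO stroma, 5.2 ± 5.01 in KO epithelium and 5.19 ± 5.21 in WT epithelium (SD, n = 3 each), and no neighbours in that order differed beyond their spread. The reference was well above background for Cfd on 2 arrays only, those with the highest Cy3 (KO stroma 3 and WT epithelium 2), so elsewhere the ratio is set against a reference at background. On these 2 arrays the processed Cy5 signal was 24.3-fold and 5.35-fold the median of the other arrays, which lowers their ratios. Cy3 was 349813 on KO stroma 3 and 170609 on WT epithelium 2, while the ratios were 9.83 and 10.65.

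Of the droplet genes, perilipin 1 showed the 2 high captures most plainly. Perilipin 1 (Plin1), which coats the fat droplet and gates lipolysis, had ratios of 0.2, 0.02 and -0.18 in the epithelium of KO tumours and 0.03, 3.92 and 0.18 in that of WT tumours, then 1.59, 5.86 and 0.67 in KO stroma and 0.28, 1.13 and -0.02 in WT stroma. It was well above background on 5 of 12 arrays, namely all 3 of KO stroma, WT epithelium 2 and WT stroma 2, and on 0 of 3 arrays of KO epithelium. Its reference was at background on all 12. Group means were 2.71 ± 2.77 in KO stroma, 1.38 ± 2.21 in WT epithelium, 0.47 ± 0.6 in WT stroma and 0.01 ± 0.19 in KO epithelium (SD, n = 3 each), with each step smaller than the larger SD of the pair.

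Perilipin 4 (Plin4), a coat protein of small nascent droplets, had ratios of -1, -0.1 and -2.07 in the epithelium of KO tumours and 1.38, 2.35 and -2.02 in that of WT tumours, then 0.34, 4.27 and -2.25 in KO stroma and -0.92, 0.4 and -1.15 in WT stroma. Values near -2 and values above 2 stood side by side in both KO stroma and WT epithelium, and all 4 groups overlapped. The means were 0.79 ± 3.28 in KO stroma, 0.57 ± 2.3 in WT epithelium, -0.56 ± 0.84 in WT stroma and -1.06 ± 0.98 in KO epithelium (SD, n = 3 each), and no step exceeded the larger SD.

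Cidec, which fuses small droplets into a large one, was well above background on 4 arrays by its brighter probe, 1 in each group. The reference was at background on all 12 arrays for both Cidec probes. The brighter probe gave 0.6, 1.84 and 0.13 in the epithelium of KO tumours and -0.16, 2.74 and -0.23 in that of WT tumours, then 0.58, 5.26 and 0.04 in KO stroma and 0.47, 0.94 and 0.15 in WT stroma. In each group the array detected by this probe was the highest, with KO stroma 3 first and WT epithelium 2 next. The group means, 1.96 ± 2.87 in KO stroma, 0.85 ± 0.88 in KO epithelium, 0.78 ± 1.69 in WT epithelium and 0.52 ± 0.4 in WT stroma (SD, n = 3 each), did not differ beyond their spread. A second Cidec probe, detected on 3 arrays (KO epithelium 3 and 4 and KO stroma 3), also peaked on KO stroma 3, at 1.29, but lay at 0.16 on WT epithelium 2, where it was not well above background.

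Among the genes of lipid transport, the fatty acid carrier Fabp4 had ratios of 3.34, 5.28 and -1 in KO epithelium and 1.73, 5.78 and 0.01 in WT epithelium, and of 6.47, 9.19 and 4.58 in KO stroma and 2.44, 4.11 and 3.22 in WT stroma. It is not restricted to fat cells, being also made by capillary endothelium and macrophages. It was detected on 11 of 12 arrays, the exception being KO epithelium 4 (Cy3 69). All 3 KO stromal values lay above all 3 WT stromal values, while the epithelial groups covered nearly the same span. The order of the means was 6.75 ± 2.32 in KO stroma, 3.26 ± 0.83 in WT stroma, 2.54 ± 3.22 in KO epithelium and 2.51 ± 2.96 in WT epithelium (SD, n = 3 each), and the step from KO to WT stroma was the only one larger than both SDs of its pair.

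Lipoprotein lipase (Lpl), which frees fatty acids from circulating lipoproteins, had ratios of -0.37, -0.95 and -2.17 in KO epithelium and 0.43, 1.14 and 0.62 in WT epithelium, and of 0.55, 3.67 and 0.72 in KO stroma and 1.11, 0.04 and 0.89 in WT stroma. KO epithelium held the 3 lowest of the 12 values, below every array of the other groups. The means were 1.65 ± 1.75 in KO stroma, 0.73 ± 0.37 in WT epithelium, 0.68 ± 0.57 in WT stroma and -1.17 ± 0.92 in KO epithelium (SD, n = 3 each), and the last step exceeded both SDs. A second, dimmer Lpl probe was detected on 5 arrays and on 0 of 3 of KO epithelium, with a highest ratio of 1.29 on KO stroma 3, and followed the first over the 12 arrays with r = 0.755.

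Pck1, the cytosolic enzyme that makes glycerol backbone for re-esterifying fatty acids and that liver and kidney use for glucose synthesis, had ratios of -1.14, 0 and 0.78 in KO epithelium and 0.33, 1.29 and 2.64 in WT epithelium, and of 0.58, 1.32 and 0.45 in KO stroma and -1.12, -0.42 and 0.48 in WT stroma. It followed the other members least, with r = 0.181 to their mean over the 12 arrays and 0.423 without WT epithelium 3. The means were 1.42 ± 1.16 in WT epithelium, 0.79 ± 0.47 in KO stroma, -0.12 ± 0.97 in KO epithelium and -0.35 ± 0.8 in WT stroma (SD, n = 3 each), with no step above the larger SD. As for Adipoq, its top value came from WT epithelium replicate 3, where Cy3 read 178065 and Cy5 39136. That Cy5 was 5.98-fold the median of the other arrays in the processed signal.

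Pparg, the regulator, was detected on all 12 arrays. Its ratios were -2.12, -2.16 and -3.19 in KO epithelium and -2.32, -0.34 and -3.13 in WT epithelium, and -0.78, 1.25 and -0.63 in KO stroma and -1.36, -1.66 and -1.26 in WT stroma. The 3 KO stromal arrays lay above the 3 WT stromal arrays and above all KO epithelial arrays. The means were -0.06 ± 1.14 in KO stroma, -1.43 ± 0.21 in WT stroma, -1.93 ± 1.43 in WT epithelium and -2.49 ± 0.61 in KO epithelium (SD, n = 3 each), and of the 3 steps that from KO to WT stroma exceeded both SDs.

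**Figure D2:**
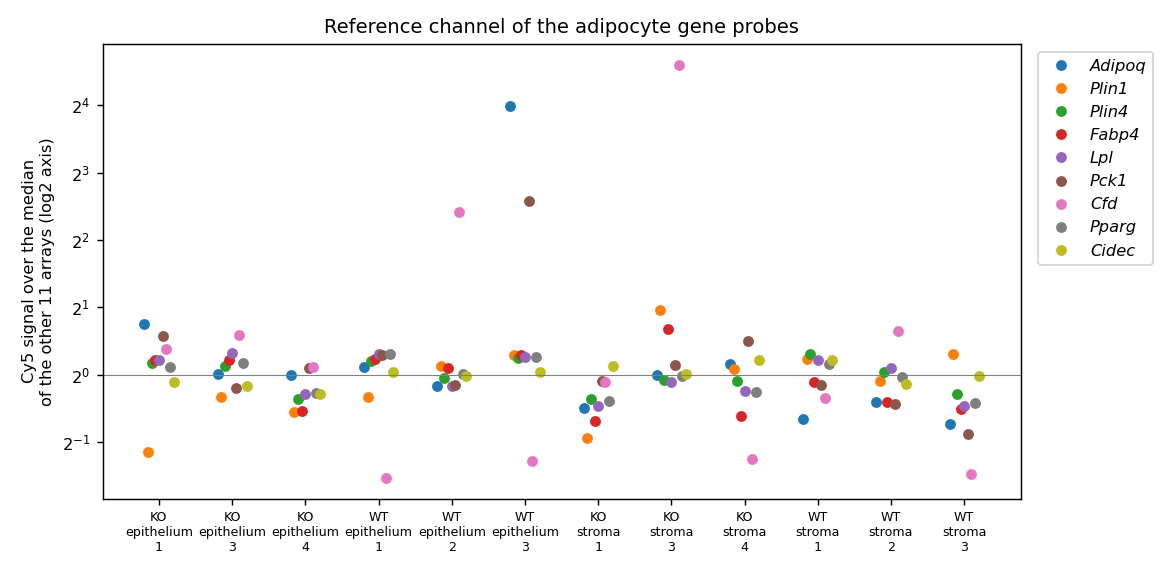
Processed Cy5 signal of the probe of each of the 9 detected adipocyte genes on each array, divided by its median over the other 11 arrays (log2 axis), 1 point per gene. Adipoq (15.9) and Pck1 (5.98) stand apart on WT epithelium 3, and Cfd, whose reference is at background on 10 arrays, on KO stroma 3 (24.3) and WT epithelium 2 (5.35).

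The reference signal of WT epithelium replicate 3 stood apart for more than these genes. Of 24327 spots whose Cy5 was well above background on at least 9 arrays, 680 (2.8%) were over 4-fold above the median of the spot there, against 0 to 32 on each of the other 11 arrays. That array also had 211 spots flagged as non-uniform, against 3 to 16 elsewhere. For the other 7 detected genes Cy5 on that array lay within the span of the other arrays. Comparisons of Adipoq and Pck1 that use WT epithelium are given below with and without that array's spot, and their correlations with and without that array.

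How closely the members moved together was described by the correlation of each with the mean of the other 8 over the 12 arrays, which come from 6 tumours. It was 0.914 for Plin1, 0.879 for Cidec, 0.847 for Pparg, 0.835 for Fabp4, 0.783 for Plin4, 0.754 for Lpl, 0.624 for Cfd, 0.564 for Adipoq and 0.181 for Pck1. Without the 2 highest captures, KO stroma 3 and WT epithelium 2, it was 0.732 for Fabp4, 0.681 for Plin1, 0.664 for Cfd and 0.578 for Pparg, 0.472 for Cidec and 0.392 for Lpl, and 0.262 for Plin4, -0.0849 for Adipoq and -0.292 for Pck1. Without WT epithelium 3 alone, the array with the unusual Adipoq and Pck1 spots, it was 0.838 for Adipoq and 0.423 for Pck1, and without all 3 of these arrays 0.257 and -0.247. The 7 other genes had 0.617 to 0.912 without WT epithelium 3.

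Outside the list, the 5 genes whose ratios were most like the mean of the members over the 12 arrays were Slc36a2 (r = 0.955), Ces1d (0.941), Car3 (0.926), Sncg (0.921) and Mcpt4 (0.916). Slc36a2 is an amino acid transporter, Ces1d a carboxylesterase, Car3 a carbonic anhydrase, Sncg a synuclein and Mcpt4 a mast cell protease. Car3 had 6.78 on KO stroma 3 and 5.57 on WT epithelium 2 against a median of 1.22 on the other 10 arrays, and Sncg 6.03 and 4.05 against 2.11. Slc36a2 had 4.43 and 1.97 against -0.1, Ces1d 3.03 and 1.45 against 0.04, and Mcpt4 4.66 and 1.57 against 0.32. Without those 2 arrays their r was between 0.707 (Car3) and 0.855 (Ces1d). These genes were picked for their likeness, so the values are a description.

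The first comparison, between KO and WT epithelium, addressed whether adipocyte genes in captured tumour cells differed with the genotype. None of the 9 genes passed (limma, adjusted p under 0.05 over all 13274 genes), where 1 gene in all, 0.00753%, did. At an unadjusted p under 0.05 there were 2 of 9, against 8.05% of all genes. Positive differences were found for 3 of 9, against 54.1% of all genes, with a median over the 9 of -1.37 against 0.03 over all genes. The 3 with the smallest p were Lpl, 3.73-fold lower in KO (log2 -1.9, SE 0.75, adjusted p = 0.614), Pck1 (-1.54, SE 0.64, adjusted p = 0.614) and Adipoq (-2.15, SE 1.05, adjusted p = 0.64). Lpl was the 1 member whose groups did not overlap, as in 4.47% of all genes in that direction. Its second probe gave -0.46 (SE 0.31). With the spots of WT epithelium 3 set missing, Adipoq was at -1.38 and Pck1 at -0.93. The median was -0.09 without WT epithelium replicate 2. Fabp4 (0.04, SE 1.79), Cfd (0.01, SE 2.82) and Cidec (0.07, SE 1.24) had differences far smaller than their errors.

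Between KO and WT stroma none of the 9 genes passed either, where 859 genes, 6.47%, did. At an unadjusted p under 0.05 there were 0 of 9, against 21.6% of all genes. Of the differences 8 of 9 were positive, against 48.4% of all genes, and the median was 1.35 against -0.01 over all genes. Fabp4 was 11.2-fold higher in KO stroma (log2 3.49, SE 1.79, adjusted p = 0.297) and Pparg 2.59-fold (1.37, SE 0.7, adjusted p = 0.295), neither past the threshold. These 2 were the members whose groups did not overlap, higher in KO, as for 13.1% of all genes. Plin1 had 2.24 (SE 1.28), Cidec 1.44 (SE 1.24), Adipoq 1.35 (SE 1.05), Plin4 1.35 (SE 1.5), Pck1 1.14 (SE 0.64), Lpl 0.97 (SE 0.75) and Cfd -0.4 (SE 2.82). Without KO stroma replicate 3 the median was 0.17 and 5 of 9 differences were positive.

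**Figure D3:**
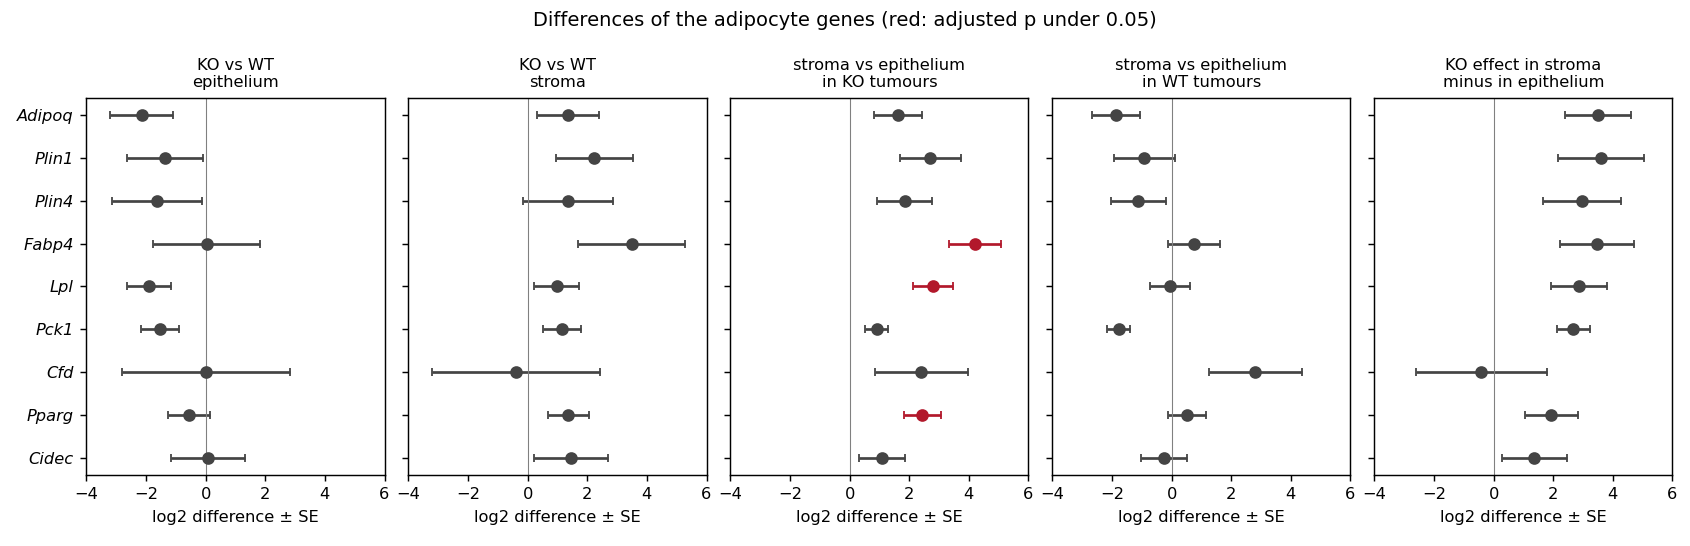
Log2 difference with its SE (horizontal axis) of the 9 detected adipocyte genes in 5 comparisons, the first-named group over the second, red where the limma adjusted p was under 0.05. Red points occur only for Fabp4, Lpl and Pparg between stroma and epithelium of KO tumours.

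Within KO tumours the stroma had more signal of 3 adipocyte genes than the epithelium of the same tumours. Fabp4 was 18.4-fold higher (log2 4.2, SE 0.88, limma adjusted p = 0.0199), Lpl 7.04-fold (2.81, SE 0.67, adjusted p = 0.0296) and Pparg 5.41-fold (2.44, SE 0.63, adjusted p = 0.0382). Thus 3 of the 9 rose and 0 fell, where 10.2% of all genes were called higher in stroma and 20.2% in either direction. All 9 differences were positive, against 47.1% of all genes, and their median was 2.4 against -0.04 over all genes. Without KO tumour 3 the median was 1.13 and 8 of 9 differences were positive. The second Lpl probe, undetected in KO epithelium, gave 0.77 (SE 0.23, adjusted p = 0.0603) and was not called. The arrays of stroma and epithelium did not overlap for Lpl, Pparg and Plin1, 3 of 9 genes, as for 17.7% of all genes in that direction. The differences in tumours 1, 3 and 4 were 3.12, 3.91 and 5.58 for Fabp4, 0.93, 4.62 and 2.9 for Lpl, and 1.34, 3.41 and 2.56 for Pparg. On the epithelial array of tumour 4 Fabp4 was not well above background (Cy3 69), so its 5.58 rests on an undetected value. The 18.4-fold mean difference includes that value. The differences of Fabp4, Lpl and Pparg were positive in all 3 tumours, as were those of Plin1 and Cfd. That made 5 of 9 genes, against 25.2% of all genes. For the other 4, 1 or more tumours had a negative difference, such as -0.57 for Adipoq and -0.18 for Plin4 in tumour 4. Plin1 was detected on 3 of 3 arrays of KO stroma, 1 of WT epithelium, 1 of WT stroma and 0 of KO epithelium. It thus passed the filter of 3 or more arrays only through KO stroma. Its place in the counts of members higher in KO stroma, here and against WT stroma, is therefore partly set by that filter.

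The droplet and adipokine genes did not pass in this comparison. Plin1 had 2.7 (SE 1.02, limma adjusted p = 0.109) with 1.4, 5.84 and 0.86 in tumours 1, 3 and 4. It was undetected in KO epithelium, and its mean over the stromal arrays was at least 6.2-fold higher by Cy3 after scaling between arrays. This bound is open to dye bias and is not one for each tumour. Before scaling, Cy3 in tumours 1, 3 and 4 was 188, 5507.5 and 130.5 in stroma and 91, 81 and 68 in epithelium. With the scanner's processed signals in place of normexp, Plin1 passed (4.9, adjusted p = 0.031). Cfd had 2.4 (SE 1.56), Plin4 1.85 (SE 0.92), Adipoq 1.63 (SE 0.8), Cidec 1.1 (SE 0.77) and Pck1 0.91 (SE 0.39, adjusted p = 0.149). Leaving out any 1 KO tumour ended at least 2 of the 3 calls. Without KO tumour 3, 0 members passed (Lpl 1.91, adjusted p = 0.104, Pparg 1.95, adjusted p = 0.163, Fabp4 4.35, adjusted p = 0.0747). Without tumour 1, Lpl alone passed, and without tumour 4 Pck1 alone (1.52, adjusted p = 0.0294). Over all genes the calls also went from 2683 to 1214 without KO tumour 1, 1174 without tumour 3 and 1054 without tumour 4. The fold of Fabp4 without these tumours stayed between 3.52 and 4.74 on the log2 scale. Without the tumour as a block Fabp4 did not pass (adjusted p = 0.136), and without a filter on dim probes Pparg did not (adjusted p = 0.0544). Leaving out WT tumour 1, which shares only the estimate of the spread, also ended the Pparg call (adjusted p = 0.0642).

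In WT tumours no member passed between stroma and epithelium, where 1 gene, 0.00753%, did. At an unadjusted p under 0.05 there was 1 of 9 (Pck1), against 8.82% of all genes. The median of the 9 was -0.26 with 3 of 9 positive, against 53% of all genes, and it was 0.48 without WT tumour 2, whose epithelium was the high capture described above. Tumours 1, 2 and 3 gave 0.71, -1.68 and 3.21 for Fabp4, 0.68, -1.11 and 0.28 for Lpl and 0.96, -1.31 and 1.87 for Pparg. All 9 genes were lower in stroma than in epithelium in WT tumour 2, by 1.71 at the median. Adipoq (-0.45, -1.89 and -3.26) and Pck1 (-1.45, -1.71 and -2.16) were lower in the stroma of all 3 tumours, as 15% of all genes were. Pck1 had -1.77 (SE 0.39, adjusted p = 0.394), and -1.58 with the spot of WT epithelium 3 set missing. Adipoq had -1.87 (SE 0.8, adjusted p = 0.571), and -1.17 with that spot missing.

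**Figure D4:**
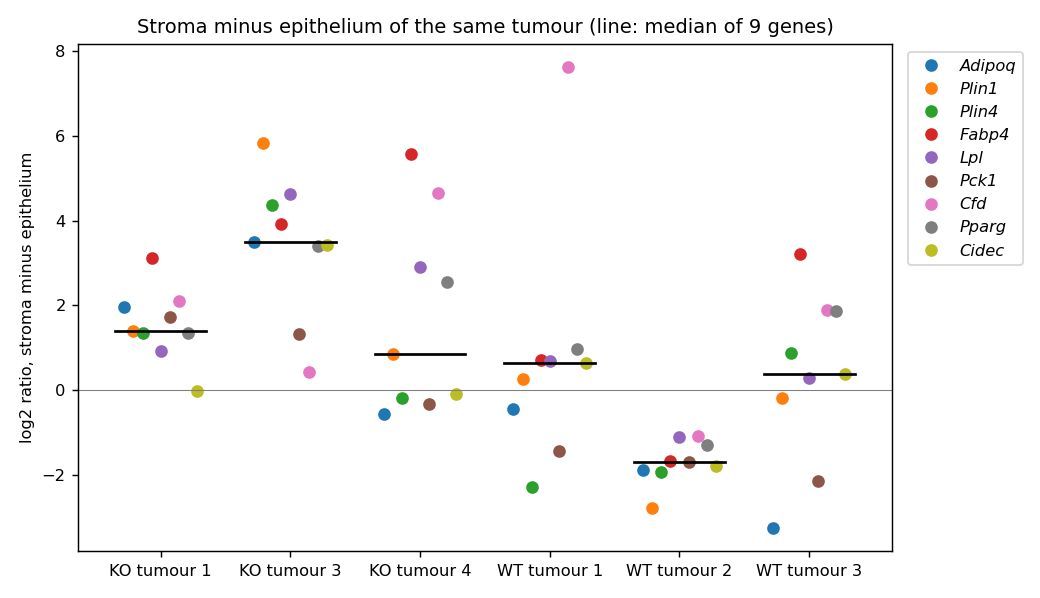
Stroma minus epithelium of the same tumour on the log2 ratio scale (vertical axis) for the 9 detected adipocyte genes in the 6 tumours, the line marking their median. The medians were 1.4, 3.49 and 0.86 in KO tumours 1, 3 and 4 and 0.63, -1.71 and 0.38 in WT tumours 1, 2 and 3.

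The difference between KO and WT in how far stroma exceeds epithelium was tested in its own right, and 0 of the 9 genes and 0 of all genes (0%) passed, with 2408 genes at an unadjusted p under 0.05 (18.1%). Pck1 had the smallest p of the members, with a difference of 2.68 (SE 0.55, limma adjusted p = 0.0974), made up of 0.91 in KO and -1.77 in WT tumours. With the spot of WT epithelium 3 missing it was 2.49 (adjusted p = 0.154). An unadjusted p under 0.05 was found for 5 members, namely Pck1, Adipoq (3.5, SE 1.12, and 2.8 with the spot of WT epithelium 3 missing), Lpl (2.87, SE 0.94), Fabp4 (3.46, SE 1.24) and Plin1 (3.61, SE 1.44). Plin1 passed the filter only through KO stroma, so its place here and in the next counts is partly set by that filter. Of the 9 differences 8 were positive, against 45.1% of all genes, with a median of 2.87 against -0.06 over all genes. The calls in KO tumours and their absence in WT tumours are therefore not shown to differ between the genotypes.

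The wider fat programme was counted over lists of genes of the same pathways. The counts are to be read against all genes tested, of which 10.2% were called higher and 10% lower in KO stroma than in KO epithelium, and 3.53% higher and 2.95% lower in KO than in WT stroma. Of 13 measured genes of fatty acid and triglyceride synthesis, 0 were called higher and 1 lower in KO stroma than in KO epithelium, namely Srebf1, the regulator of lipid synthesis genes (-1.77, SE 0.31, limma adjusted p = 0.0122). Srebf1 was also the 1 of 13 called between KO and WT stroma (-1.78, SE 0.28, adjusted p = 0.00782). Of 11 genes of lipid uptake and lipolysis, 1 was called higher in KO stroma than epithelium, Gpihbp1, the capillary protein that anchors lipoprotein lipase (2.53, SE 0.58, adjusted p = 0.0265), and 0 between genotypes in stroma, where Mgll had 1.02 and Abhd5 -1.22. Of 7 droplet and caveola genes, Cavin1, a caveola coat protein, was called in both, at 3.42 (SE 0.51, adjusted p = 0.00717) against KO epithelium and 2.93 (SE 0.6, adjusted p = 0.0215) against WT stroma, and the other 6 in neither.

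Of 10 measured regulators of adipocyte formation, 2 rose in both comparisons, the early B-cell factors Ebf1 and Ebf2, which act in fat precursors. Ebf1 had 2.31 (SE 0.21, limma adjusted p = 0.0022) against KO epithelium and 1.53 (SE 0.23, adjusted p = 0.00699) against WT stroma, and Ebf2 1.85 (SE 0.33, adjusted p = 0.0132) and 1.56 (SE 0.33, adjusted p = 0.0225). Of 11 further adipokines and receptors, Angptl4, an inhibitor of lipoprotein lipase, was called in KO stroma over epithelium (2.53, SE 0.61, adjusted p = 0.0305) and had 2.77 (SE 0.94, adjusted p = 0.11) over WT stroma. Of 3 measured brown fat genes, the deiodinase gene Dio2 was called over KO epithelium (2.67, SE 0.39, adjusted p = 0.00652). It had 2.9 (SE 0.8, adjusted p = 0.0563) over WT stroma. Over the 6 lists the median difference between KO stroma and KO epithelium lay between -0.15 for synthesis genes and 1.2 for the brown fat genes, against 2.4 for the 9 members.

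No gene of these 6 lists was called between KO and WT epithelium or between stroma and epithelium of WT tumours. Those with the smallest p between the epithelia were Srebf1 (-0.58) and the citrate lyase gene Acly (-0.37) for synthesis, Gpihbp1 (-1.49) and the fatty acid transporter gene Slc27a1 (-0.45) for uptake, and Cideb (0.76) and Plin2 (-0.76) for droplets. Among regulators they were the retinoid X receptor gene Rxra (-0.64) and the coactivator gene Ppargc1a (-1.23), among adipokines Agt (-1) and Rbp4 (1.41), and among brown fat genes Cox7a1 (-0.33) and Cox8b (-0.73). Their limma adjusted p was 0.614 or more, and the list medians lay between -0.42 and -0.11 against -1.37 for the 9 members. In WT tumours the smallest p belonged to Srebf1 (-0.57) and Mlxipl (0.22), to Slc2a4 (-0.71) and Slc27a1 (0.28), to Cideb (0.39) and Plin3 (-0.22), to Ebf1 (0.54) and Zfp467 (0.46), to Adipor1 (-0.37) and Nampt (0.31), and to Cox7a1 (-0.44) and Dio2 (0.13). None had an adjusted p under 0.539.

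Markers of other cells moved with the same comparisons. Between KO stroma and KO epithelium, 11 of 12 fibroblast and fat precursor genes, 9 of 9 macrophage genes and 4 of 8 endothelial genes were called higher and 8 of 9 luminal genes lower, against 10.2% and 10% of all genes. All 4 measured erythroid genes were called higher too (Hba-a1 4.44, Hbb-bt 3.82, Hbb-bs 2.83 and Alas2 1.99), while 2 of 8 milk genes (Csn1s1 -3.26 and Wap -2.12) and 1 of 3 skeletal muscle genes (Mb -3.37) were called lower. Between KO and WT stroma 3 of 12, 3 of 9 and 0 of 8 were called higher, and 5 of 9 luminal genes lower, against 3.53% and 2.95% of all genes. There 0 of 4 erythroid genes were called, 2 of 8 milk genes were lower (Lalba -5.76 and Wap -5.64) and 1 higher (Btn1a1 1.05), and Mb was lower (-3.72). No gene of these 7 lists was called between the epithelia, in WT tumours or for the difference of the KO effect. The mean of the fibroblast list was 1.96 to 2.14 per array in KO stroma and -0.68 to 0.63 in WT stroma, that of macrophages 3.34 to 3.95 and 1.14 to 2.51, and that of endothelium 1.8 to 3.03 and 1 to 1.58. The erythroid mean was 4.4 to 5.63 in KO stroma, 3.58 to 3.83 in WT stroma and 1.03 to 3.35 in KO epithelium. The milk mean was 0.46 to 1.15 in KO stroma, 1.97 to 6.48 in WT stroma and 0.88 to 3.92 in KO epithelium. The adipocyte mean ran from 0.81 to 4.9 in KO stroma and from 0.89 to 1.58 in WT stroma, so its ranges overlapped where those of the fibroblast, macrophage and endothelial lists did not. The part of these cells in the values of Fabp4, Lpl and Pparg was not tested.

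**Figure D5:**
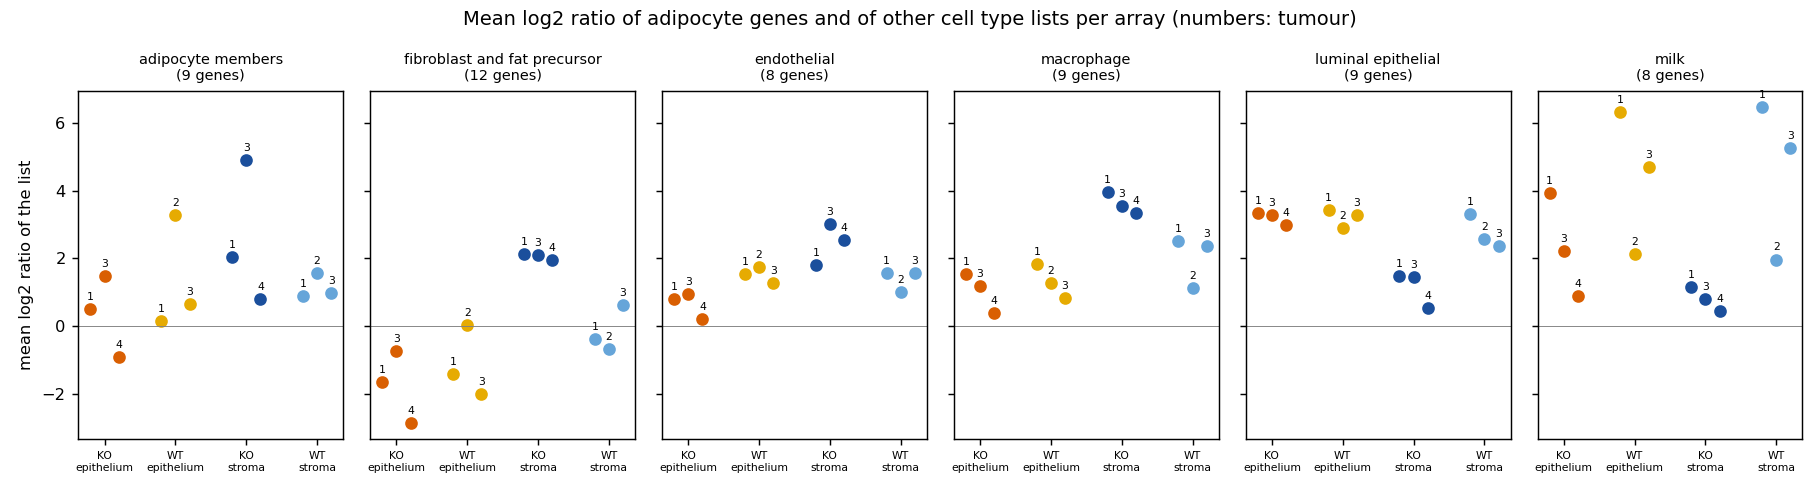
Mean log2 ratio per array (vertical axis) of the 9 detected adipocyte genes and of 5 lists of other cell types and products, 1 point per array with its tumour number. The KO stromal arrays are close together for fibroblast genes (1.96 to 2.14) and far apart for adipocyte genes (0.81 to 4.9).

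On KO stroma 3 the fibroblast mean (2.11) and the macrophage mean (3.55) lay between those of the other KO stromal arrays, and the endothelial mean (3.03) was the highest of the 3. The adipocyte mean of 4.9 stood against 2.05 and 0.81 on those arrays. Both Lpl probes and both Cidec probes peaked there too, and the brighter probe of each is part of that mean. The second Cidec probe passed the filter of 3 arrays only with KO stroma 3, so its peak is partly set by that filter. The 5 genes most like the members also peaked there, but they were picked for following a mean that is highest on this array. WT epithelium 2, the other high capture, had a luminal mean of 2.9, the lowest of the 3 WT epithelial arrays, and a fibroblast mean of 0.05, the highest. Its endothelial mean of 1.76 was the highest too, while its macrophage mean of 1.29 lay between those of the other WT epithelial arrays (1.84 and 0.84). The erythroid mean of this array, 4.46, was the highest of the 3 and above the 3.58 to 3.83 of WT stroma. Its milk mean of 2.13 was the lowest of the 3.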

How the data were processed

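Per the labels' protocols, RNA of the laser-captured tissue carried Cy3 on every array and universal reference RNA carried Cy5. Agilent Feature Extraction 10.7.3.1 made the scanner files, per the file headers. The deposited scanner files give median spot and local background intensity, processed intensity, quality flags and a log10 ratio. The deposited table of log2 values has epithelial columns that run as reference over sample (r -0.902 to -0.869 with the ratios used here across spots, medians 0.03, 0.02 and 0.03 in KO and 0.01, 0 and -0.03 in WT). Its stromal columns (medians 0.03, -0.01, 0, 0, 0.02 and 0.03) did not go with their arrays (r -0.00569 to 0.000863), so their scale, centring and direction stay unknown and they were not used. The sources used here do not say how that table was made.

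Here normexp (offset 50) and loess within each array were applied, non-uniform spots were set missing and spots of a probe averaged. Probes were named by accession through a RefSeq table (GRCm38.p6). The brightest probe kept (Cy3 above background, by the scanner's flag, on 3 or more of 12 arrays, no missing value) stood for a gene. limma 3.58.1 in R 4.3.3 (lmFit, eBayes) was run with p-values adjusted over 13274 genes by Benjamini and Hochberg's method (threshold 0.05), on 4 group means for KO against WT (8 residual degrees of freedom) and with tumour as a fixed block for the rest (4). The pairing comes from genotype and number in the titles. Deviations of the compartments of a tumour correlated across genes at 0.092, 0.29 and 0.23 in KO tumours 1, 3 and 4 and 0.45, 0.29 and 0.25 in WT tumours 1, 2 and 3. Scripts were tested on simulated data. The number of arrays limits the precision. The members, the 13 lists beside them and the tests were chosen with earlier results of these data known. Named are all members, of each list the called genes (up to 4 by p) or, where none is called, the 2 with the smallest p, and the 5 genes most like the members. Lists that mark other cells are given by counts, with erythroid, milk and muscle genes named where called.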

Additional observations from a re-analysis of the deposited data

How the results depend on the processing

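In both KO against WT comparisons, in WT tumours and in the test of the KO effect between compartments, 0 members passed under every setting run (16 to 18 per comparison, leaving out each array or tumour included). In KO tumours the count of 3 was 2 without the replicate block, 4 with the scanner's processed signals and 0 to 3 when 1 tumour was left out (1 without KO tumour 1, 0 without KO tumour 3 and 1 without KO tumour 4). The median between KO and WT epithelium, -1.37, ran from -2.04 to -0.09 when 1 array was left out. With tumour as a random replicate block (correlation 0.22) it was again -1.37, and that in stroma 1.35. Each tumour gives 1 array per compartment, so this block can change only errors and p-values, not these medians. The block changed no member's call other than that of Fabp4 in KO tumours. An alternative chosen after seeing the data set missing the spots whose reference signal was over 4-fold from its median. Only spots with Cy5 well above background on at least 9 arrays were considered, so Cfd was not. Of the members' values, only Adipoq and Pck1 on WT epithelium 3 went missing. This gave a median of -0.93 between the epithelia and left 3 members called in KO tumours. Of all members' single values, 714 kept their side of the threshold, 11 lost the call and 2 gained it, and no called value changed sign. Of uncalled values, Cfd between the epithelia ran from -2.72 to 2.78 and Fabp4 from -1.87 to 1.81. The reference was at background for Plin1 and Cidec on all 12 arrays and for Cfd on 10, which limits the precision of their ratios.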
